A study of Drosophila melanogaster with 3 samples.

Results

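The genes described here encode the general transcription factors and the Mediator complex of Drosophila melanogaster. They were chosen by name: every protein-coding gene of the dm6 annotation whose symbol starts with Taf and a digit, with TfII or with MED and a digit, plus Tbp and Ssl1. The rule took 51 of the 13945 protein-coding genes on the 6 chromosome arms 2L, 2R, 3L, 3R, 4 and X. By symbol alone, 16 of these members were counted in TFIID, among them the Taf12-like gene Taf12L. Of the rest 10 are other TFII factors (with Ssl1 counted among them) and 25 are Mediator subunits. The rule used no measured value, but members were chosen with earlier results of these data known. Ssl1 is the only TFIIH gene in the rule, and 9 other TFIIH genes fall outside it and are described below.

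The protein mapped was CG1647, fused at its C terminus to GFP in a stable transgenic fly line. Whole embryos aged 0 to 24 h, with males and females pooled, were collected as 3 biological replicates, and the fusion protein was precipitated with an antibody to GFP (chromatin immunoprecipitation and sequencing, ChIP-seq). All 3 replicates are of 1 group with the same transgene, and no sample without it was analysed here. Because whole embryos of mixed age were used, the cells and stages in which a site was occupied cannot be told apart, and fewer occupied cells cannot be told from weaker occupancy per cell.

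General transcription factors bring RNA polymerase II to a promoter. TFIID, which holds the TATA-binding protein Tbp and its associated factors (Tafs), recognises the core promoter, TFIIA and TFIIB steady it there and join it to the polymerase, and TFIIE, TFIIF and TFIIH open the DNA and release the enzyme. Mediator carries signals from sequence-specific factors at enhancers to that machinery, with a head and middle module that touch the polymerase, a tail that meets activators, and MED14 as the backbone between them, as worked out in yeast and mammals. Most of these proteins are needed in every cell type of the embryo.

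Retained peaks are those in the authors' optimal list, thresholded on the irreproducible discovery rate, a measure of reproducibility. A gene was called bound where the summit of a retained peak lay within 500 bp of the start of any of its transcripts. By that rule 16 of the 51 members (31.4%, exact 95% interval 19.1% to 45.9%) were bound, against 16.2% of all protein-coding genes (2266 of 13945). The interval covers counting error over genes only, and the genes are not independent, so it is a description and not a test. The bound members were Ssl1, TfIIA-S, TfIIA-L and TfIIB among the TFII factors, Taf4 and Taf7 in TFIID, and MED4, MED6, MED7, MED15, MED16, MED17, MED25, MED27, MED30 and MED31 in Mediator. Thus 4 of 10 TFII factors (40%, exact 95% interval 12.2% to 73.8%), 10 of 25 Mediator genes (40%, 21.1% to 61.3%) and 2 of 16 TFIID genes (12.5%, 1.55% to 38.3%) had a retained summit, and these intervals overlap one another.

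The sequences at 6 of these summits are shown first, 201 bases centred on each summit and read on the strand of the member. Ssl1, MED30 and Taf4 are shown because they held the retained summit with the highest signal in their complex. MED17, MED6 and MED27 were picked from the members with motif matches, so the 6 are not a fair sample for motifs. Of the 16 bound members, 7 had no match to the marked sequences in the 200 bp around the summit. Capitals mark matches on either strand to the following sequences. These are TATCGAT (the core of the DNA replication-related element, DRE), CANCNCTG (similar to core promoter motif 7), GGTCACAC (core promoter motif 1) and the E-box CAGCTG. The bases come from the RefSeq copy of release 6 of the genome (dm6), at chr3L:22878778-22878978 (plus strand) for Ssl1, chr3L:654190-654390 (minus strand) for MED30, chr3L:16113567-16113767 (plus) for Taf4, chr3R:18188939-18189139 (plus) for MED17, chr3R:9767716-9767916 (minus) for MED6 and chr3R:5654891-5655091 (plus) for MED27.
Ssl1: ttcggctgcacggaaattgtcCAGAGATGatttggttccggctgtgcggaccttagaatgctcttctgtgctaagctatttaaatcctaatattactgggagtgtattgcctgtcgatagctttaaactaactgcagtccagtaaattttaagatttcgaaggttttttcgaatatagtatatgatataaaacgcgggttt
MED30: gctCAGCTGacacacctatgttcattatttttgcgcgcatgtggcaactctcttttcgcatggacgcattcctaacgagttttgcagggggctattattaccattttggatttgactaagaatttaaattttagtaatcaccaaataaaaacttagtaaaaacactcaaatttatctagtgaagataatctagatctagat
Taf4: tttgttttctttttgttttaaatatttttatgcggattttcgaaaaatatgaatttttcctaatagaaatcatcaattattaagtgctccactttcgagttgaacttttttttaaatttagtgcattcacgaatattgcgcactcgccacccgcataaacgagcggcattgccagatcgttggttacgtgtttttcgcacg
MED17: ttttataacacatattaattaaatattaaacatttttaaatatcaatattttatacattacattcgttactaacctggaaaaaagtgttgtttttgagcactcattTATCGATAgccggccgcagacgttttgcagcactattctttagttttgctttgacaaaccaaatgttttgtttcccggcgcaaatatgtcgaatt
MED6: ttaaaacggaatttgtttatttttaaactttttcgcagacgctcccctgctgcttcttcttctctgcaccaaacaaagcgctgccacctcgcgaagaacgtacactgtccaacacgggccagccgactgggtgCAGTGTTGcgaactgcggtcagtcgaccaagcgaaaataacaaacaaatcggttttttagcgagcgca
MED27: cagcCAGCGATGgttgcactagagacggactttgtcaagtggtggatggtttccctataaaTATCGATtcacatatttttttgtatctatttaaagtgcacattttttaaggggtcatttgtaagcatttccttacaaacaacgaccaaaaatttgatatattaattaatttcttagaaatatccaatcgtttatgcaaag

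The MED17 window holds the whole palindrome TATCGATA, which matches the DRE core on both strands. In MED27 a DRE core and a match to CANCNCTG lie on the same side of the summit. The Taf4 window holds no match to any of the 4 motifs.

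Signal, the value the authors' peak caller gave each peak, was used to rank the peaks within each list, with rank 1 the highest. The retained list held 3123 peaks with signals of 126.2 to 2899 and a median of 189. These were exactly the 3123 peaks of highest signal in the authors' candidate list over the pooled replicates. Being retained thus went with pooled rank, and does not show that a peak was found in each replicate. Each replicate had a longer candidate list of its own, which by its description also holds background, with 30000 peaks in replicate 1, 17977 in replicate 2 and 30000 in replicate 3. Replicate ranks below are those of the candidate peak at the same site.

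Among the TFII factors, Ssl1, a core subunit of TFIIH with a role in DNA repair as well as initiation, stood far above the rest. Its summit was rank 8 of the retained list with a signal of 1711 (peak chr3L:22878742-22879066). The same site was rank 10 in replicate 1, rank 10 in replicate 2 and rank 5 in replicate 3, and its summit moved by 5 bp at most between them. The summit lay 211 bp upstream of the Ssl1 start and 106 bp downstream of the start of Chro, which encodes the chromatin protein Chromator, inside the 5′ untranslated region of Chro. The peak did not reach the Ssl1 start, so the gene it serves cannot be told from its position.

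TfIIA-S, the small subunit of TFIIA, had the next highest TFII summit, at rank 436 with a signal of 357.1 (chr3R:23890900-23891289). It was rank 239, 431 and 1223 in replicates 1, 2 and 3, and lay 35 bp upstream of the TfIIA-S start with no other coding gene within 500 bp. TfIIB, which links TFIID to the polymerase, had a summit of rank 1645 and signal 184.2 (chr2L:10430789-10431178), 354 bp upstream of its start but 66 bp upstream of Bug22, a gene of ciliary function. TfIIB's site was rank 1797 and 1247 in replicates 2 and 3 and rank 3180 in replicate 1, just past the 3123 best peaks.

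TfIIA-L encodes the large subunit of TFIIA. Its summit was rank 2126 with a signal of 159.2 (chr3R:27253122-27253511), and was rank 2617, 1727 and 2262 in replicates 1, 2 and 3. It lay in an intron of TfIIA-L, 113 bp upstream of an internal transcript start, and 135 bp upstream of pll, which encodes the Pelle kinase of the Toll pathway. TFIIA therefore had a retained summit at the genes of both of its subunits, while neither TFIIE nor TFIIF did. That contrast depends on the setting, since TfIIA-L was not bound with 1 start per gene. TfIIA-S-2, a relative of TfIIA-S on the X chromosome, had no candidate in any list.

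In TFIID the bound genes were Taf4, a scaffold subunit, and Taf7, which in mammals restrains the activity of Taf1. The Taf4 summit was rank 1332 with a signal of 206.9 (chr3L:16113472-16113861), and was rank 986, 1353 and 1730 in replicates 1, 2 and 3. The Taf7 summit was rank 2728 with a signal of 137.2 (chr3R:7907342-7907731), and was rank 10914, 2190 and 4260 in replicates 1, 2 and 3. Taf4 was thus among the 3123 best peaks of all 3 replicates and Taf7 in that of replicate 2 alone. Both summits lay in an intron of the gene itself and upstream of an internal transcript start, by 123 bp at Taf4 and 101 bp at Taf7. The Taf7 summit was also 174 bp upstream of EMC1, a subunit of a complex that inserts proteins into the endoplasmic reticulum membrane.

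The Mediator genes with the highest signal were in the tail and in the part between head and tail. MED30 had rank 161 and a signal of 538.5 (chr3L:654095-654484), and was rank 128, 160 and 243 in replicates 1, 2 and 3. MED27 had rank 352 and a signal of 388.7 (chr3R:5654796-5655185), and was rank 561, 197 and 710. Both lay between divergent genes: the MED30 summit was 201 bp upstream of MED30 and 73 bp upstream of Rev1, a translesion DNA polymerase, and the MED27 summit 148 bp upstream of MED27 and 130 bp upstream of elm. MED28, the other member in this part of the complex, had no candidate in any list. MED29 also belongs to this part, but its gene is ix, which is outside the rule and had no candidate either.

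Of the 5 tail genes, MED15, MED16 and MED25 were bound. MED15, the subunit that binds many activators in yeast, had rank 350 and a signal of 390 (chr2L:472318-472707), and was rank 195, 573 and 431 in replicates 1, 2 and 3. Its summit lay exactly 500 bp from the MED15 start, at the edge of the window, and 313 bp upstream of the divergent gene CG4297. In each replicate the summit at this site fell outside the window, so MED15 counts as bound from the retained list but not from any replicate. MED16 had rank 1111 and a signal of 227.9 (chr2R:22182856-22183245), was rank 1236, 884 and 1456, and lay 87 bp upstream of MED16 and 172 bp upstream of CG11170. MED25 had rank 1854 and a signal of 172 (chr3R:20008445-20008834), was rank 1773, 2062 and 2793, and lay 307 bp upstream of MED25 and 128 bp upstream of Hs6st, a heparan sulfate sulfotransferase gene. MED23 and MED24 completed the tail and had candidates but no retained summit.

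In the head module MED6 and MED17, 2 of 7 genes, were bound. MED6 had rank 856 and a signal of 258.8 (chr3R:9767621-9768010), was rank 676, 1345 and 1303 in replicates 1, 2 and 3, and had its summit 1 bp from a MED6 transcript start, in the 5′ untranslated region. That start is 19 bp from the start of Naa80, an actin acetyltransferase gene on the other strand, and the summit was 18 bp upstream of Naa80. MED17, the head scaffold, had rank 1192 and a signal of 219.7 (chr3R:18188844-18189233), was rank 1994, 1050 and 982, and lay 33 bp upstream of MED17 and 332 bp upstream of CG12321.

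In the middle module MED4, MED7 and MED31, 3 of 9 genes, were bound, and here the replicates differed most. MED7 had rank 1007 and a signal of 239.9 (chr3R:10760921-10761310) but was rank 7338 in replicate 1, against 710 in replicate 2 and 630 in replicate 3. MED4 had rank 1384 and a signal of 203 (chr3L:7250463-7250852) but was rank 11305 in replicate 3, against 680 in replicate 1 and 1094 in replicate 2. MED31 had the lowest signal of all bound members, 129.4 at rank 2989 (chr3R:4641675-4642064), and was rank 9566, 2408 and 3411 in replicates 1, 2 and 3. MED7 and MED4 were therefore among the best peaks of 2 replicates each and MED31 in that of replicate 2 alone. The MED7 summit was 84 bp upstream of MED7 and 194 bp upstream of Cap-H2, a condensin II gene, the MED31 summit 93 bp upstream of MED31 with CG9775 and slx1 also in range, and the MED4 summit 131 bp upstream of MED4 with no other coding gene in range. MED14, the backbone gene, had no retained summit.

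**Figure D1:**
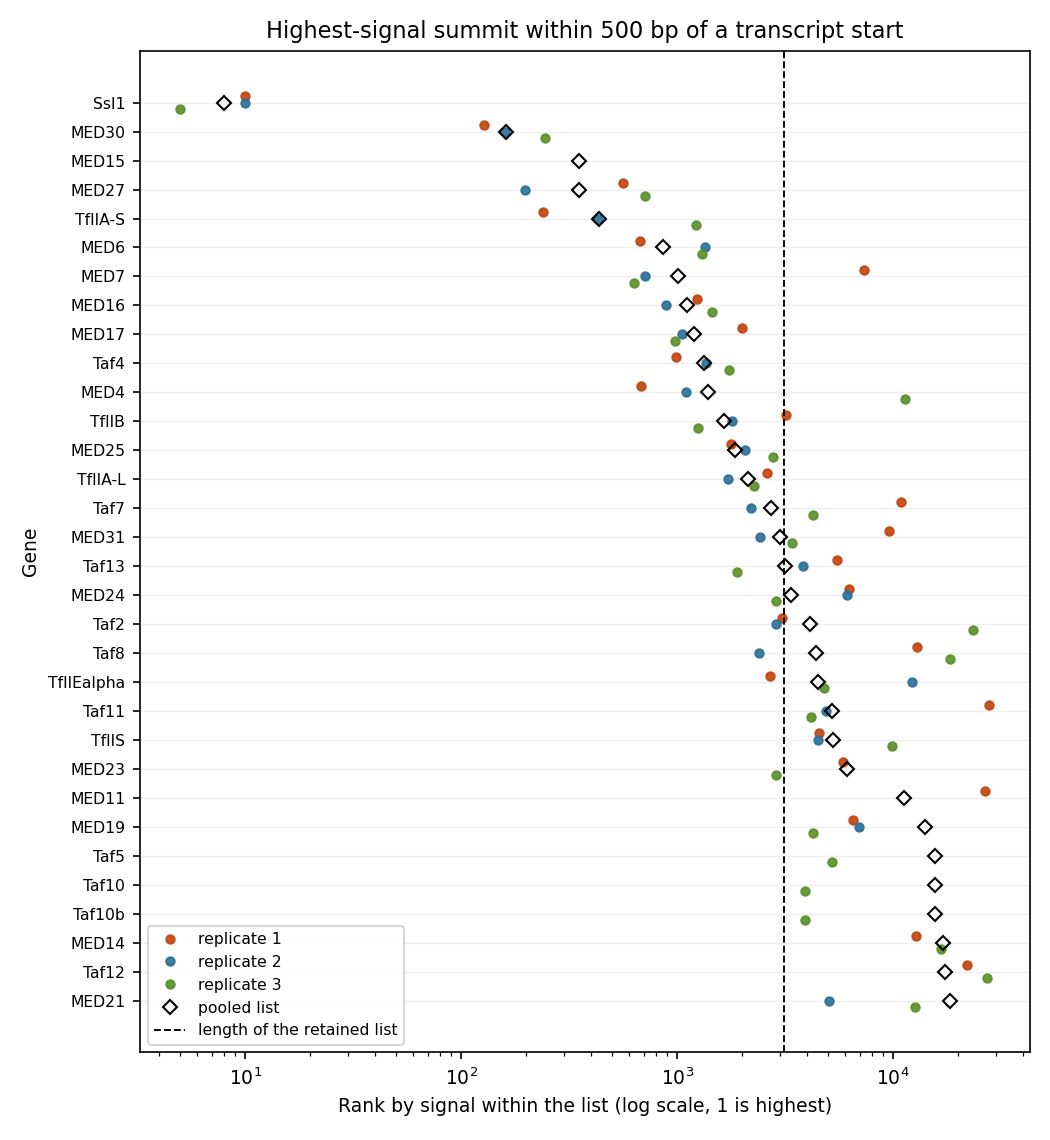
Rank by signal, on a log axis where 1 is highest, of the highest-signal summit within 500 bp of a start, for the 32 members with a candidate in the pooled list. Diamonds are the pooled list, filled circles the 3 replicates, and the dashed line is rank 3123, the length of the retained list. The 16 genes from Ssl1 to MED31 lie left of the line in the pooled list, and MED7, MED4, Taf7 and MED31 each have a replicate far to the right of it; MED15 has no circle because its replicate summits fell beyond 500 bp.

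Over all 16 sites, the retained peak overlapped one of the 3123 highest-signal peaks in all 3 replicates at 11 members, in 2 replicates at MED4, MED7 and TfIIB, and in 1 at Taf7 and MED31. The ranks of the 16 sites had a Spearman correlation of 0.806 between replicates 1 and 2, 0.603 between replicates 1 and 3 and 0.832 between replicates 2 and 3, a description over 16 sites of a list that was itself made from all 3 replicates. Summits of one site spread over 5 to 294 bp between replicates, with a median of 75 bp. The −log10 q-value in the authors' file was 3.58 at 13 of the 16 peaks, and 2.93 at TfIIA-L, 1.94 at Taf7 and 1.72 at MED31, the 3 of lowest signal. The bound members had a median retained rank of 1152 and a median signal of 223.8, against 1398 and 201.8 for all bound protein-coding genes. At rank 1561 or better were 11 of the 16, against 54.9% of all bound genes.

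Counted in each replicate separately, among its own 3123 highest-signal peaks, 13 members had a summit within 500 bp of a start in replicate 1, 17 in replicate 2 and 15 in replicate 3. The background was 14.6% of all protein-coding genes in replicate 1, 16.4% in replicate 2 and 16.2% in replicate 3. The members' share was 29.4% ± 3.92 (SD, n = 3), against 15.7% ± 0.991 for all protein-coding genes, and in each replicate it was above that replicate's background. Mediator genes numbered 7, 9 and 9 in replicates 1, 2 and 3, TFII factors 4 in each, and TFIID genes 2, 4 and 2. The TFII factors were not the same genes each time: TfIIEalpha counted in replicate 1, and TfIIB in replicates 2 and 3. In each replicate the TFIID share was below that of the other 2 groups. No test of that difference was made, since genes are not replicates of a condition.

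**Figure D2:**
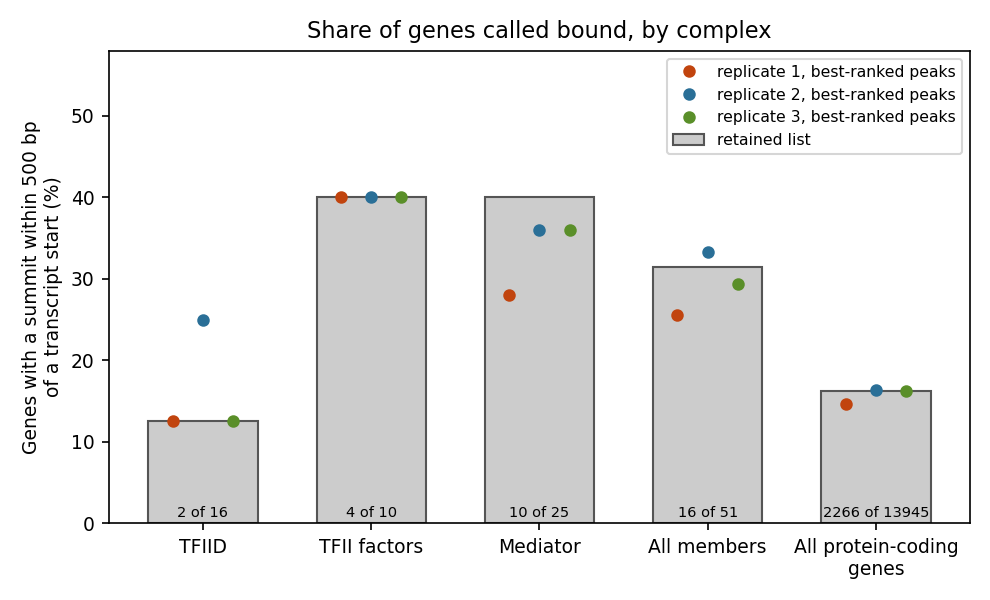
Percentage of genes with a summit within 500 bp of a transcript start, for TFIID, the TFII factors, Mediator, all members and all protein-coding genes. Bars are the retained list, with the number of genes at the foot, and circles the 3123 highest-signal peaks of each replicate. TFIID lies between 12.5% and 25%, and all protein-coding genes between 14.6% and 16.4%. The TFII factors are at 40% throughout, though not with the same genes in each replicate.

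Measured from the transcript start nearest to it, the summit was upstream at all 16 bound members, against 87.1% of all bound protein-coding genes, and the median position of the summit relative to the start was -118 bp, against -114 bp. At 13 of the 16 it was also within 500 bp of the start of another protein-coding gene, which was so for 58.9% of all bound genes. At MED6, Taf4, TfIIA-L and Taf7 the nearest start was an internal one, and the summit lay downstream of the outermost start of the gene. The member was the gene nearest to the summit in 9 of the 16, against 71.2% of all bound genes. At Ssl1, MED30, MED15, MED27, TfIIB, MED25 and MED31 a neighbour was at least as close. TfIIA-S, Taf4 and MED4 had the summit to themselves.

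**Figure D3:**
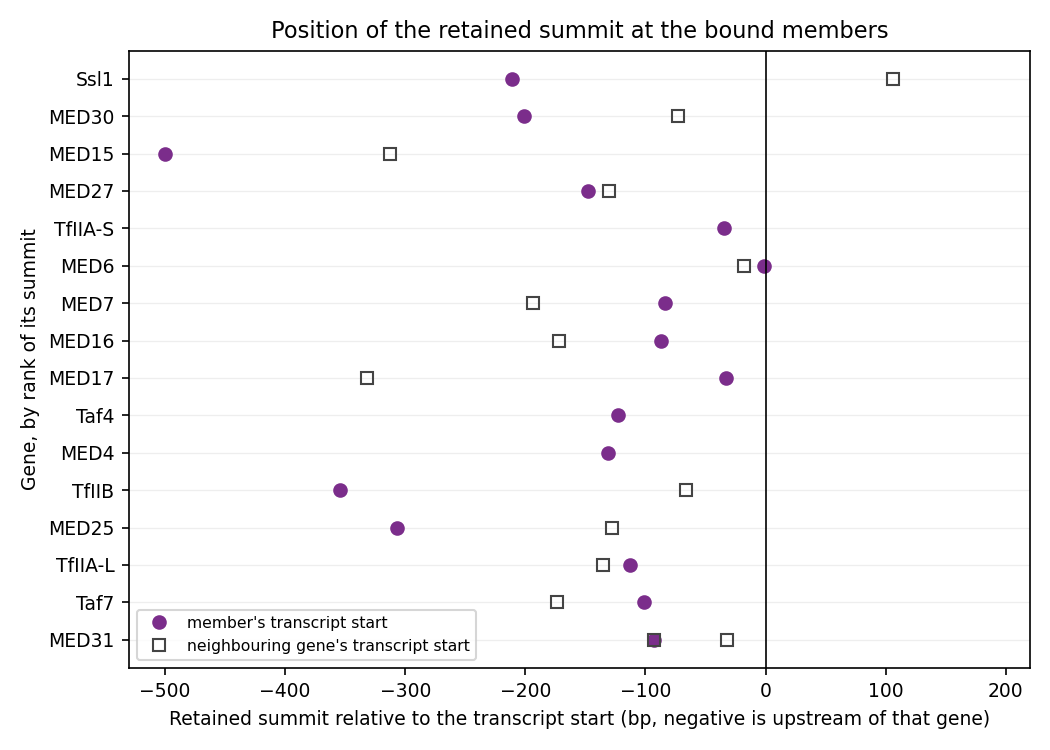
Position of the retained summit in bp relative to a transcript start, negative being upstream of that gene, for the 16 bound members in order of rank. Filled circles are measured from the member's start and open squares from each neighbouring gene's start. All circles lie between 500 and 1 bp upstream, and the Chro start beside Ssl1 is the single one with the summit downstream, by 106 bp.

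Because so many summits were shared, the arrangement of the promoters was examined. Of the members 37 of 51 (72.5%) were head to head with another gene, transcribed away from it from a start within 1000 bp, against 36.2% of all protein-coding genes. Among head-to-head members 14 of 37 (37.8%) were bound, against 29.5% of head-to-head genes overall. Of the other 14 members 2 were bound (14.3%), TfIIA-S and MED4, against 8.73% of such genes overall. Within either arrangement the members' share was closer to the background than the overall share of 31.4% was to 16.2%. How much of the overall difference goes with the arrangement was not tested.

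**Figure D4:**
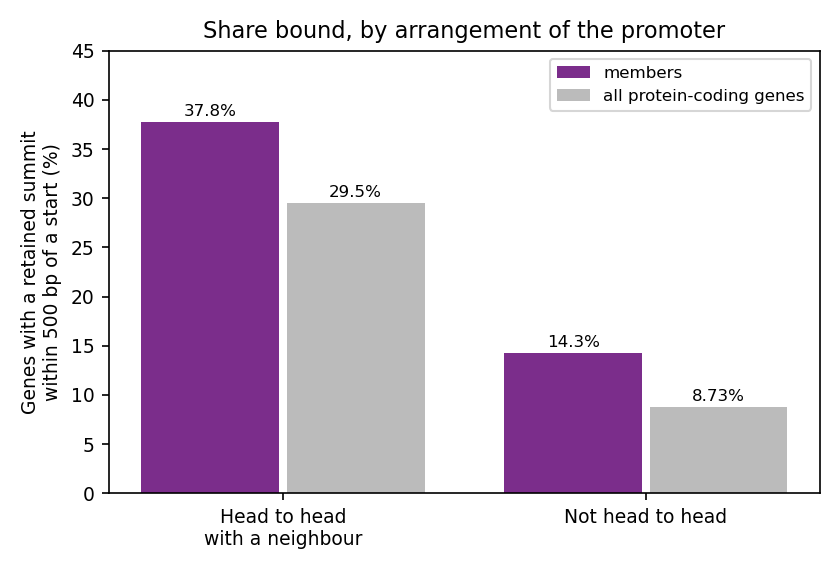
Percentage of genes with a retained summit within 500 bp of a start, for members and for all protein-coding genes, split by whether the gene lies head to head with a neighbour within 1000 bp. Members stand at 37.8% against 29.5% where head to head and at 14.3% against 8.73% where not.

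By chromosome arm, 9 of 14 members on 3R were bound, 4 of 15 on 3L, 2 of 9 on 2L, 1 of 6 on 2R, none of 5 on X and none of 2 on 4. Over all protein-coding genes the shares were 17.3% on 3R, 18.2% on 3L, 15.5% on 2L, 15.7% on 2R, 14.2% on X and 5% on 4. Apart from these 16 peaks, no retained summit lay within a member gene.

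Of the 35 members without a retained summit, 16 had a summit in the pooled candidate list of 19204 peaks, so that 32 of 51 members (62.7%) had one, against 44% of all protein-coding genes. The split by complex was then even, with 10 of 16 TFIID genes, 6 of 10 TFII factors and 16 of 25 Mediator genes. Closest to the threshold were Taf13, a histone-fold subunit of TFIID, at pooled rank 3166 with a signal of 125.3, and MED24 at rank 3374 with 120.5. Just inside it were MED31 at 129.4 and Taf7 at 137.2, so these 4 genes differed little in signal while falling on opposite sides. Some unretained members were nevertheless within the best 3123 of a single replicate: Taf13 (rank 1898), MED24 (2862) and MED23 (2854) in replicate 3, Taf8 (2383) in replicate 2 and TfIIEalpha (2679) in replicate 1.

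Next in the pooled list came Taf2, which contacts the initiator, at rank 4125, Taf8 at 4409, TfIIEalpha at 4472, Taf11 at 5232, the elongation factor gene TfIIS at 5283 and MED23 at 6119. Taf2 was rank 3061 and 2871 in replicates 1 and 2, both within the best 3123, but rank 23491 in replicate 3, and it was not retained. Further down were MED11 at 11246, MED19 at 14029, Taf5 at 15615, Taf10 and Taf10b at 15628, MED14 at 17027, Taf12 at 17392 and MED21 at 18272. Taf10 and its paralogue Taf10b start 45 bp apart on opposite strands and share that 1 candidate.

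The last 19 members had no pooled candidate. Of these, 11 had one in at least 1 replicate: Tbp, Taf1, Taf3, Taf6, TfIIEbeta, TfIIFalpha, TfIIFbeta, MED1, MED10, MED20 and MED26. The best of these ranks was that of Tbp, 7112 in replicate 1 and 8051 in replicate 2. Taf9, Taf12L, TfIIA-S-2, MED8, MED9, MED18, MED22 and MED28, the other 8, had no candidate in any list. No unbound member had a retained summit within 1000 bp of a start. The nearest were those of TfIIEalpha at -1492 bp and Taf12 at 1500 bp (negative is upstream), and the nearest to Taf6 was the highest-signal peak of the whole list, rank 1 with a signal of 2899, at -8463 bp. Absence from a list says that no summit was called there, and with the depth unknown it sets no limit on occupancy.

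Genes that work with the members were taken from a list of the Mediator kinase module, TFIIH, TFIID and TBP relatives, the SAGA coactivator and RNA polymerase II, chosen by function. Of these 47 genes 13 (27.7%) were bound, against the background of 16.2%. The order turned where each summit was given only to its nearest gene: 4 of the 47 (8.51%) were bound, against 11.9% of all protein-coding genes. Without replicate 2 and without replicate 3 the count was 7 each time (14.9%), against 11% and 11.2% of all protein-coding genes. In RNA polymerase II 4 of 12 subunit genes were bound, among them Polr2F at rank 201 with a signal of 496.7 and Polr2H at rank 226 with 477.4, followed by Polr2J at rank 1213 and Polr2B, the second largest subunit, at rank 1550. In TFIIH 3 of 9 genes besides Ssl1 were bound: mrn at rank 1821, Tfb5 at rank 2045 and CycH, the cyclin of its kinase, at rank 2905. None of these came near Ssl1 in signal, mrn having 174.

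In SAGA 3 of 13 genes (23.1%) were bound, and among the relatives of TFIID and Tbp 2 of 9 (22.2%), against 16.2% of all protein-coding genes. The SAGA genes were Gcn5, the histone acetyltransferase, at rank 440 with a signal of 355.3, Ada3 at rank 1371 and e(y)2 at rank 2593. The relatives were NC2alpha, a subunit of a repressor of TBP, at rank 261 with a signal of 451.2, and Hel89B, a remover of TBP from DNA, at rank 2205. In the kinase module skd (the fly MED13) was bound at rank 1050 with a signal of 234.7 and a summit at -460 bp from its start, and kto, Cdk8 and CycC were not. Of the summits at the 13 bound pathway genes, 11 had another coding gene within 500 bp, against 58.9% for all bound protein-coding genes.

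Motifs were searched on both strands in the 200 bp around each summit, and their shares among the 16 bound members were set beside those around all 3123 retained summits and around the 19252 starts of coding transcripts. CANCNCTG was found at 6 members, Ssl1, MED6, MED16, MED27, MED31 and TfIIB, against 19.1% of retained summits and 13.8% of starts. The DRE core TATCGAT was at 3, MED17, MED25 and MED27, against 10.1% and 12.7%, and the full TATCGATA at MED17, against 4.9% and 6.44%. CAGCTG was at 2, MED25 and MED30, against 11.2% and 13.4%, and GGTCACAC at none, against 3.17% and 5.68%. In the 100 bp around the summit CANCNCTG remained at MED6 alone (1 of 16), against 10.8% of retained summits, so the members' share was then the lower one.

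GAGAG, the repeat bound by GAGA factor, was at 4 members (MED4, MED25, MED30 and TfIIA-S), against 23.9% of retained summits and 24.9% of starts. TATAAA was also at 4 (Ssl1, MED17, MED25 and MED27), against 30.5% and 26.8%. Within 100 bp GAGAG and CAGCTG were at 0 members, against 10.5% and 5.35% of retained summits. At 7 members (MED4, MED7, MED15, Taf4, Taf7, TfIIA-L and TfIIA-S) none of TATCGAT, CANCNCTG, GGTCACAC and CAGCTG was found. No 1 of the 7 sequences searched was therefore present at all the bound members, and a match is only a run of letters, not evidence of a site in use.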

How the data were processed

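ChIP-seq peak lists of 3 biological replicates of 1 group were analysed. Per the labels, chromatin was sonicated, with fragments of 200 to 800 bp. The authors deposited a candidate list for each replicate and for the pooled replicates, and a shorter optimal list thresholded on the irreproducible discovery rate, here the retained list. Each peak has a deposited signal value (column 7, used for ranks within a list), a −log10 q-value deposited by the authors (column 9) and a summit (column 10). No label or header names the aligner, the peak caller or their settings, which are therefore not given here. Reads were not used, so the depth of each library is unknown and no precision is derived from it.

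The dm6 lists were joined to Ensembl release 115 gene records with Python 3.11.15. Intervals are exact Clopper-Pearson 95% intervals (SciPy 1.17.1), and figures were drawn with Matplotlib 3.10.9. Replicate lists were brought to their 3123 highest-signal peaks, and peaks were matched by an overlap of at least 1 bp. Of 64 pathway symbols, 46 matched exactly and 1 by an older name; 2 were ambiguous, 2 were members and 13 were repeats. Lists on dm3 were not used. The look-up was tested on simulated data. With 1 group, no test between conditions was possible. Members, lists, motifs and alternatives were chosen with earlier results of these data known. Every bound gene is named, then members with a pooled candidate by rank.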

Additional observations from a re-analysis of the deposited data

How the results depend on the processing

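The 16 bound members (31.4%, against 16.2% of all protein-coding genes) became 11 (21.6%) at 200 bp, with peak overlap and among the 1561 retained peaks of highest signal, against 11.9%, 11.3% and 8.92% of all genes. They were 14 with 1 start per gene (27.5%, against 14.6%). At 1000 bp and with midpoints they stayed at 16 (31.4%), against 18.7% and 16.2% of all genes. With pooled candidates they were 32 (62.7%, against 44%). They were 9 with each summit given to its nearest gene (17.6%, against 11.9%), an alternative chosen after the data were seen. TFIID's 2 became 1 among those 1561 (Taf7 dropped out) and 10 with pooled candidates. The TFII factors' 4 became 2 at 200 bp, with peak overlap, among those 1561 and by nearest gene. Mediator's 10 became 16 with pooled candidates and 5 by nearest gene. The 13 other pathway genes became 8 (17%) at 200 bp, with peak overlap and among those 1561, 31 with pooled candidates and 4 by nearest gene (8.51%, below the 11.9% of all genes). Replicates 1, 2 and 3 were left out in turn, keeping retained peaks that overlapped 1 of the 3123 highest-signal peaks in both others. This lowered the share of all genes to 12.3%, 11% and 11.2%. It left 13, 11 and 12 members, 1 TFIID gene each time (6.25%), 3 to 4 TFII factors, 7 to 8 Mediator genes, and 12, 7 and 7 other pathway genes. The mean of 15 members per replicate (29.4%, against 15.7% of all genes) was 11.3 (22.2%) at 200 bp and 17 (33.3%) at 1000 bp. It was 13 (25.5%) with 1 start per gene, 9 (17.6%) with lists of 1561 peaks and 33.3 (65.4%) with whole lists. The share of all genes per replicate is not given for these alternatives, so the changes cannot be read as particular to the members. In 400 bp windows the DRE core count of 3 became 5, while the share of all retained summits went from 10.1% to 15.2%. The full DRE count of 1 became 3, while that share went from 4.9% to 7.56%. In 100 bp windows CANCNCTG went to 1 member (of 6), against 10.8% of retained summits, and GAGAG to 0 (of 4), against 10.5%. CAGCTG went to 0 (of 2), against 5.35%, and TATAAA to 2 (of 4), against 15.9%. MED16, MED17, Taf4 and TfIIA-S were bound under all 11 alternatives. No paired analysis was possible because there was 1 group. Unknown depth limits what an uncalled promoter shows.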

Other observations

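Genes with names or roles close to the members but outside the rule gave these values. TAF1B, a factor of RNA polymerase I rather than II, had a retained summit at rank 2695 with a signal of 138.1, 80 bp upstream of its start. TAF1C-like, of the same polymerase I machinery by name, had one at rank 1943 with a signal of 167.4, 134 bp upstream. The gene ix, which encodes the Mediator subunit MED29 and so escapes a rule based on symbols, had no candidate within 500 bp in any list.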
